A study of Mus musculus with 6 samples.

Results

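A set of 10 pluripotency regulators was followed in the germ cells of XX mouse gonads and in gonad somatic cells made from embryonic stem (ES) cells. They were Pou5f1, Nanog, Sox2, Prdm14, Prdm1, Tfap2c, Utf1, Tcl1, Gdf3 and Sox15, taken by symbol, and they are 10 of the 31053 genes listed in every library. All 10 were measured. RNA was read cell by cell in droplets with the Chromium 3′ v2 kit of 10x Genomics, which counts unique molecular identifiers (UMIs), each standing for 1 captured polyadenylated RNA molecule. There were 5 libraries of ICR gonads at embryonic days E10.5, E11.5, E12.5, E13.5 and E14.5, and 1 library labelled Induced D6, of 129svj x C57BL/6J cells. The Induced D6 cells had been kept as aggregates over 3 steps of 2 days, of which the first used BMP4, CHIR and EGF. The second used retinoic acid, BMP4, EGF, SHH and PD0325901, and the last used FGF9 and BMP4. No library carried an engineered allele according to its labels, and the number of embryos or aggregates behind each library is not given in the sources used here. With 1 library per group there is no replicate: stage, library and (for Induced D6) strain and culture cannot be told apart, no test was made, and every interval below is an exact 95% interval that covers counting error alone.

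Pluripotency in the early embryo rests on a network of transcription factors around Pou5f1, Sox2 and Nanog. Primordial germ cells (PGCs) are set apart from their somatic neighbours by Prdm1, Prdm14 and Tfap2c, switch much of the network on again, and carry it to the gonad. In an XX gonad the germ cells then leave mitosis and enter meiosis, marked by Stra8, under the influence of retinoic acid and bone morphogenetic proteins.

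Germ cells were found by clustering each library without the 10 genes, and were named germ-cell-like from 15 marker genes that hold none of the 10. There were 18 such cells of 5937 in the E10.5 library, 311 of 2660 in E11.5, 581 of 3163 in E12.5, 1396 of 4395 in E13.5 and 1161 of 4147 in E14.5. No cluster of the 7064 Induced D6 cells took the name. The summed germ cell markers stood at 4620 to 7377 counts per 1000000 UMIs (CPM) in the germ-cell-like cells and at 4.06 to 152 CPM in the other cells of the same libraries. Dazl and Ddx4, which define germ cells, were present at every stage (68.8 to 1024 CPM and 22.9 to 209 CPM). Both are among the 15 markers that named the cells, so these levels and the contrast above follow in part from the naming. The median depth of the germ-cell-like cells was 11974.5, 21703, 17168, 13832 and 9827 UMIs over the 5 stages in order. The deposited libraries held 37606947 to 52146419 UMIs. Summed erythroid markers were at 707 and 790 CPM in the germ-cell-like cells of E13.5 and E14.5, against 41.7 to 252 CPM at the earlier stages, and their part in the results was not tested. The E13.5 and E14.5 libraries shared 114 cell barcodes, where the other 14 pairs of libraries shared 17 to 72. Of the 114, 10 were germ-cell-like cells at E13.5, 9 were at E14.5, and 2 were at both. Without the shared barcodes the value of each of the 10 genes was still lower at E14.5 than at E13.5.

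The core factors are shown with the 250 bases before their RefSeq start sites (GRCm38.p6), since their RNA is what the stages below compare. The stretches are written 5′ to 3′ on the gene's strand (plus for all 3). Capitals mark the core of the POU octamer, ATGCAAA, and the core of the SOX motif, CATTGT, searched on both strands, which do not overlap each other here. The Nanog stretch is chr6:122707239-122707488, that of Sox2 is chr3:34649745-34649994, and that of Pou5f1 is chr17:35505782-35506031.
Nanog: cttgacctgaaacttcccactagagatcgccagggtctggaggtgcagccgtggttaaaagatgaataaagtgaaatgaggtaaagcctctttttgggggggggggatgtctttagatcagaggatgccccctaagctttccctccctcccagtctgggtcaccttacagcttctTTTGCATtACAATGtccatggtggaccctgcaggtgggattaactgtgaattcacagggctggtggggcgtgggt
Sox2: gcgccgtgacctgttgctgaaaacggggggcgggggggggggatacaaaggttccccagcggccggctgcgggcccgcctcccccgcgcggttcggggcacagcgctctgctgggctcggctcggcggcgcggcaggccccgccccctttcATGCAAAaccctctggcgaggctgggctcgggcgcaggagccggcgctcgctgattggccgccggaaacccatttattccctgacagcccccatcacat
Pou5f1: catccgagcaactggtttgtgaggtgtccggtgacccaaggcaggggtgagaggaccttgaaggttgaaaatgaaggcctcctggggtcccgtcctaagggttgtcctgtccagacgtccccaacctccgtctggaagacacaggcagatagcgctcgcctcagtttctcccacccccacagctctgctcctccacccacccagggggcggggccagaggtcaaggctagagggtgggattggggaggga
In Nanog the octamer core and the SOX core, both on the reverse strand, begin at -75 and -67 from the start site, with 1 base between them. In Sox2 an octamer core begins at -99 and no SOX core was found. The Pou5f1 stretch shown held neither string, while that of a second Pou5f1 start site (chr17:35508557-35508806) held a SOX core at -158. Of 32851 RefSeq stretches of the same length, 4.12% held the octamer core and 10.7% the SOX core, and a match is not a binding site. The RefSeq table matched 7 of the 10 genes; Prdm14, Tfap2c and Gdf3 had no entry. These 7 genes had 9 stretches, and those of Prdm1, Utf1, Tcl1 and Sox15 held neither core.

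All 10 genes were over 4-fold lower in germ-cell-like cells at E14.5 than at E11.5. That count sets no minimum level, and the numbers of all genes past the same fold without a minimum are in the last section. The number of genes compared without a minimum is not given here, so the count of 10 is a description. With a minimum of 50 CPM, 11.53% of 3702 genes were at least 4-fold lower. Their values were in falling order from E11.5 to E14.5, but for Prdm1 and Prdm14 the intervals of the ratio of E11.5 to E12.5 held 1. The size of the E11.5 to E14.5 difference ran from 6.13-fold for Prdm1 to 575-fold for Nanog, and the largest values rest on 1 to 13 UMIs at E14.5, so that the intervals of Prdm14, Tcl1, Gdf3 and Nanog begin at 30.1, 62.2, 80.3 and 102. These sums are over cells, so a lower level can come from fewer cells holding the RNA or from less RNA in each.

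Pou5f1, which encodes OCT4, a POU factor at the centre of the network, stood at 808, 735, 521, 248 and 25.4 CPM over the 5 stages in order. E10.5 and E11.5 could not be told apart (intervals 693 to 936 and 714 to 756 CPM), and each later stage was lower than the one before. From E11.5 to E14.5 the level was 29.0-fold lower (25.7 to 32.8). Sox2, the partner of OCT4 on DNA, had 271, 199, 141, 98.3 and 9.15 CPM at these stages. It was 21.7-fold lower at E14.5 than at E11.5 (17.7 to 26.9), and its last step, from E13.5 to E14.5, was 10.7-fold (8.79 to 13.3) after steps of 1.41-fold and 1.44-fold. Nanog, the homeodomain factor of the core, stood at 96.4, 52.1, 32.1, 8.21 and 0.0906 CPM. The E14.5 value is 1 UMI among 1161 cells, under the floor of 3 counts (0.272 CPM), and the ratio to E11.5 was 575-fold with an interval of 102 to 22763. Nanog was already 3.91-fold lower at E13.5 than at E12.5 (3.23 to 4.74), where Sox2 was 1.44-fold lower (1.34 to 1.54).

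The genes that specify PGCs separated. Prdm1, which encodes the repressor BLIMP1, stood at 32.1, 28.3, 26.2, 20.9 and 4.62 CPM. Its levels from E10.5 to E12.5 could not be told apart by counting error, and E14.5 was 6.13-fold below E11.5 (4.47 to 8.53). Prdm14, its partner in PGC specification, stood at 22.9, 15.5, 13.1, 5.29 and 0.0906 CPM, the last again 1 UMI. The ratio of E11.5 to E14.5 was 171-fold (30.1 to 6835), and E11.5 and E12.5 could not be told apart (1.18-fold, 0.907 to 1.54). Tfap2c, which encodes the factor AP-2 gamma, stood at 73.4, 54.2, 44.6, 21.1 and 3.17 CPM and was 17.1-fold lower at E14.5 than at E11.5 (12.1 to 24.9).

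Among the remaining genes, Utf1, a chromatin-associated factor of undifferentiated cells, stood at 675, 635, 441, 170 and 18.8 CPM, a 33.7-fold difference from E11.5 to E14.5 (29.3 to 38.9). Tcl1, a coactivator of the kinase AKT, stood at 147, 126, 82.8, 24.2 and 1.18 CPM, 107-fold lower (62.2 to 202). Gdf3, a ligand of the transforming growth factor beta family that is related to Nodal, stood at 64.2, 64.2, 48.6, 11.8 and 0.272 CPM. The last value is 3 UMIs, and the ratio was 236-fold (80.3 to 1151). Sox15, a SOX factor close to Sox2 in its DNA binding, stood at 128.5, 40.9, 27.9, 7.71 and 0.453 CPM, 90.4-fold lower (38.3 to 281). Nanog and Sox15 were the genes whose E10.5 interval (59.7 to 147 and 85.4 to 186 CPM) lay above that of E11.5, from 18 cells; the intervals of the other 8 overlapped between these stages.

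**Figure D1:**
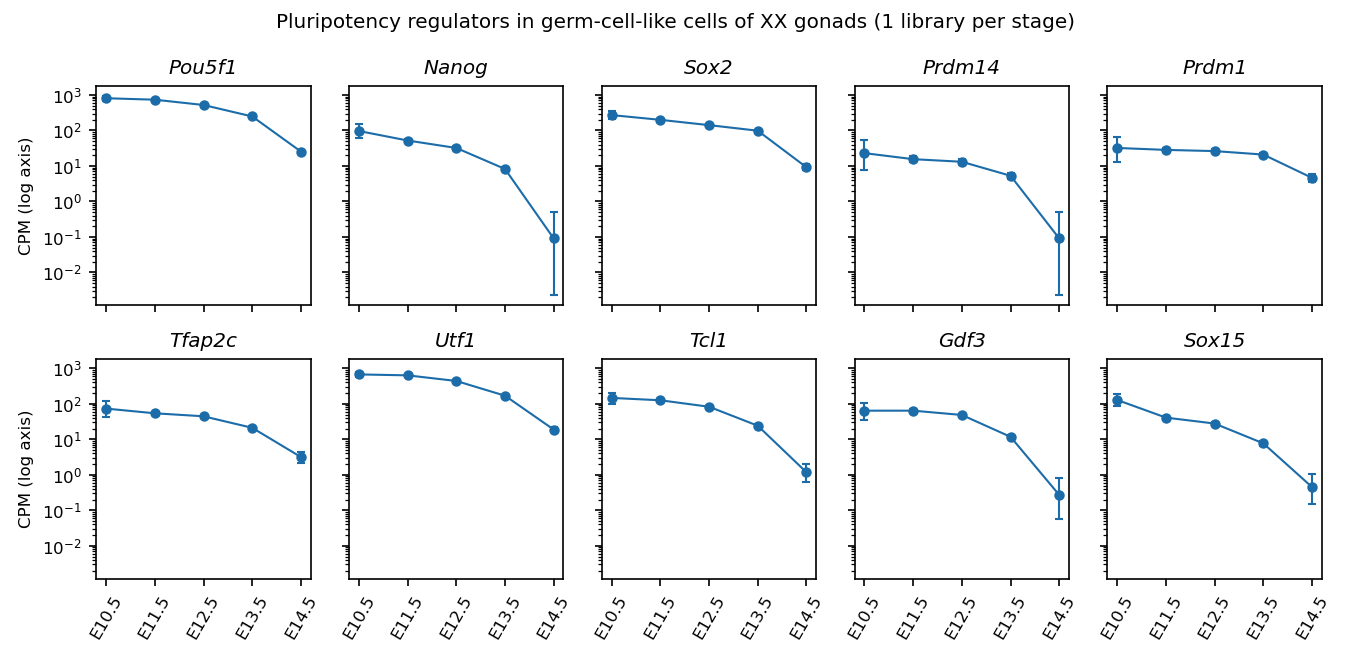
CPM of each gene in germ-cell-like cells (log axis) against embryonic stage, 1 library per stage, with exact Poisson 95% intervals. Each gene is lower at E14.5 than at E11.5, Prdm1 and Prdm14 have overlapping intervals at E11.5 and E12.5, and the E14.5 points of Nanog and Prdm14 rest on 1 UMI each.

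Of the 10 genes, 7 reached 50 CPM in germ-cell-like cells of E11.5 or E14.5, and these 7 were at least 4-fold lower at E14.5, where 11.53% of the 3702 genes that reached that level were lower and 13.8% were higher by as much. All 7 passed that minimum through E11.5 alone, the stage where they were high, so their count is a description and supports nothing. Prdm14, Prdm1 and Sox15 were under 50 CPM at both stages. The steps are given the same way. From E11.5 to E12.5 none of 7 genes was 2-fold lower (0.891% of all genes were), from E12.5 to E13.5 3 of 4 were (5.98% of all), and from E13.5 to E14.5 3 of 3 were (11.4% of all). Among the 3 of 4, Tcl1 (82.8 and 24.2 CPM) passed the minimum through E12.5 alone. The 3 of the last step passed it through E13.5 alone. From E12.5 to E13.5 Gdf3 was 4.13-fold lower (3.53 to 4.84), Nanog 3.91-fold, Sox15 3.61-fold (2.96 to 4.42) and Tcl1 3.43-fold (3.06 to 3.84), while Pou5f1 was 2.10-fold lower (2.02 to 2.19), Sox2 1.44-fold and Prdm1 1.25-fold (1.07 to 1.46). These intervals separate Gdf3, Nanog, Sox15 and Tcl1 from Pou5f1, Sox2 and Prdm1 at this step.

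With a stricter cell filter (at least 1000 genes and at most 5% mitochondrial UMIs) the E14.5 to E11.5 difference of Sox2 became 155-fold, that of Tcl1 554-fold, of Gdf3 565-fold, of Pou5f1 57.9-fold, of Utf1 58.9-fold and of Tfap2c 28.2-fold. Under that filter an E14.5 cluster of 181 cells stayed unnamed and an E13.5 cluster of 193 cells was named pluripotent-like rather than germ-cell-like, so the germ-cell-like cells are different cells. Without doublet removal the Nanog ratio was 313-fold. All 10 genes were lower at E14.5 under each of these settings.

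Other genes of the network and of the germ line were read from lists. Of 30 other pluripotency network genes, 13 reached 50 CPM and 11 of these were at least 4-fold lower at E14.5 than at E11.5, none higher, with a median log2 ratio of -3.61, against 0.03 for all 3702 genes and the 11.53% lower and 13.8% higher given above, which are the shares to set beside each list below. Called genes such as L1td1, Dppa2 and Prdm9 passed the minimum only through the stage where they were high. Dppa2, Dppa4, Dnd1, Dppa3, Dazl and Ddx4 are also among the markers that named the germ-cell-like cells. The counts of these lists are therefore a description. L1td1, an RNA-binding protein of pluripotent cells, was 146-fold lower (172 to 1.18 CPM), Dppa2 113-fold (61.3 to 0.544 CPM) and Dppa4, its partner, 26.8-fold (223 to 8.33 CPM). Zfp281, a zinc finger factor of the network, had 39.9 CPM at E11.5 and 60.6 at E14.5, a ratio of 1.52. Of 18 PGC genes, 12 of the 14 that reached the level were lower: Dnd1, an RNA-binding protein that PGCs need to survive, was 62.7-fold lower, Dppa3 (STELLA) 24.3-fold and Sall4 16.6-fold, while Ddx4 and Dazl were 2.91-fold and 2.17-fold higher. Of the meiosis list, 20 of 21 were at least 4-fold higher, among them Stra8 (1.67 to 429 CPM) and Prdm9, the recombination hotspot methyltransferase (0.609 to 311 CPM). Of the cell cycle genes, 11 of 17 were lower, with Ccnb1, the mitotic cyclin, 25.8-fold lower. None of 8 Polycomb genes was called in either direction. Mga, a part of the PRC1.6 complex, stood at 61.5 and 144 CPM, its partner Max at 67.3 and 33.8. No primed pluripotency gene reached 50 CPM at either stage. In the Nodal and activin list 1 of 19 genes, Smad2, reached it and was not called (43.1 CPM at E11.5 and 63.4 at E14.5). Under that level the list went both ways. Nodal itself stood at 4.41 CPM at E11.5 and at 0 UMIs at E14.5, and Lefty2, its inhibitor, at 10.7 and 0.181 CPM. Acvr2a, also in the list, stood at 2.59 and 13.1 CPM.

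Gdf3 and Nanog are neighbours. On chromosome 6 (GENCODE vM21, GRCm38) Gdf3 lies at chr6:122605403-122610087, Dppa3 at chr6:122626410-122630272 and Nanog at chr6:122707489-122714633. Dppa3 starts 16323 bases past the end of Gdf3 and Nanog 97402 bases past it. All 3 were lower at E14.5, Dppa3 from 1179 to 48.5 CPM. Rimklb, 106642 bases below Gdf3 on the other side, was 6.29-fold higher (26.2 to 165 CPM). Next to Sox2, the long noncoding RNA Gm3143, 47179 bases above it, had 29.1 CPM at E11.5 and 0.453 at E14.5, a 64.2-fold difference (27.0 to 199.9). Fxr2, 2017 bases from Sox15, was 2.34-fold higher, and Eif4a1 on its other side was 5.15-fold lower. H2-D1, a class I histocompatibility gene 238519 bases from Pou5f1, was higher at E14.5 (1.22 to 335 CPM, from 8 UMIs at E11.5), while Tubb5 on the other side was 4.25-fold lower. Echs1, beside Utf1, was 5.54-fold lower. The other nearest genes of at least 50 CPM on either side of a member differed by under 4-fold. Overlaps were found for 3 of the genes: Pou5f1 overlaps the antisense Gm19553 and Sox15 overlaps the opposite-strand Mpdu1, which are both counted in the files, and Sox2 overlaps the same-strand Sox2ot, which is not. How the counting assigned reads of such overlaps is not given in the sources used here.

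Within a stage the genes were read against meiotic progress. The germ-cell-like cells of each stage were put into 3 ranges of equal size by the share of their UMIs in the meiosis list, which holds none of the 10 genes. At E13.5 every one of the 10 was lower in the highest range (465 cells) than in the lowest (466 cells), and 9 of 10 were at least 2-fold lower. Of the 3 that reached 50 CPM, 2 were at least 2-fold lower, where 5.00% of 3317 genes were. The counts over all 10 set no minimum level. No share of all genes on that basis is given here, so these counts are a description. Nanog stood at 16.8, 5.46 and 0.677 CPM in the lowest, middle and highest range, a 24.9-fold difference (9.47 to 92.7). Sox15 stood at 14.53, 6.04 and 1.18 CPM, a 12.3-fold difference (5.75 to 31.2). Pou5f1 stood at 336, 247 and 139 CPM, a 2.42-fold difference (2.24 to 2.62), and Sox2 at 124, 99.9 and 64.3 CPM, a 1.93-fold difference (1.71 to 2.18). The other 6 differed by 4.03-fold (Prdm1) to 9.05-fold (Gdf3), so Pou5f1 and Sox2 had the smallest differences. Over the same ranges Stra8, one of the list, had 211, 564 and 898 CPM. The median depth of the ranges was 14971.5, 14127 and 12647 UMIs, and its part in these values was not tested. The ranges are slices of a continuous score: 275 of the 1396 cells lay within 10% of a cut.

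**Figure D2:**
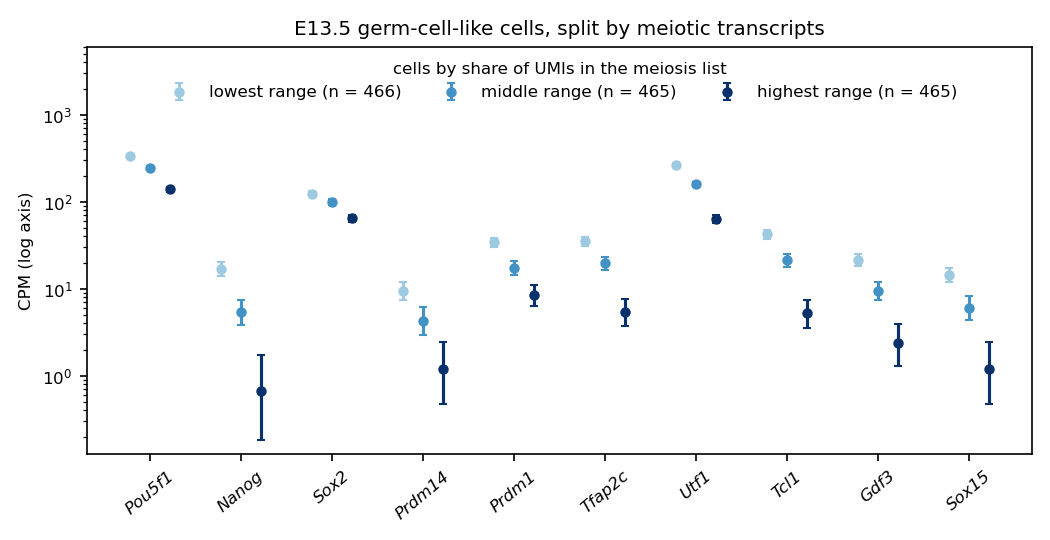
CPM of the 10 genes (log axis) in the E13.5 germ-cell-like cells of the lowest, middle and highest range of meiotic transcripts, with exact Poisson 95% intervals. Nanog goes from 16.8 to 0.677 CPM across the ranges, while Sox2 goes from 124 to 64.3.

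At E12.5 the same split gave small differences. None of the 6 genes that reached 50 CPM was 2-fold lower in the highest range (0.790% of all genes were), and Sox15 was at 2.62-fold (1.89 to 3.71), an interval that overlapped those of Nanog (1.24 to 2.25) and Tfap2c (1.31 to 2.16). For Prdm14 the ratio of the lowest to the highest range was 0.895 (0.575 to 1.40). At E14.5 the genes differed. Prdm1 had 5.38, 4.30 and 4.17 CPM over the ranges, a ratio of 1.29 (0.628 to 2.71). Pou5f1 had 54.6 CPM in the lowest range, 12.9 in the middle and 8.06 in the highest, a 6.78-fold difference (4.58 to 10.4). Sox2 had 25.3, 1.34 and 0.556 CPM, a 45.5-fold difference (12.2 to 381), the last value being 2 UMIs. Of all genes 5.54% were 2-fold lower between these ranges.

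The germ-cell-like clusters, made without the 10 genes but with meiotic ones, also differed within a stage. At E13.5 Pou5f1 and Nanog were at 331 and 17.7 CPM in the cluster of 399 cells with the least Sycp3 (100.1 CPM), and at 83.7 CPM and 0 UMIs in the cluster of 177 cells with the most (1291 CPM). Sycp3 encodes a protein of the meiotic chromosome axis. At E14.5 a cluster of 230 cells held 173 of the 280 Pou5f1 UMIs, with Pou5f1 at 78.2, Utf1 at 52.0 and Sox2 at 41.1 CPM, where the cluster of 373 cells with the most Sycp1 had 6.46, 5.94 and 1.29 CPM. The most Sycp3 at E14.5 (3098 CPM, against 2324 there) was in another cluster, of 123 shallow cells (median 2308 UMIs). That cluster had Pou5f1 at 16.7 CPM (6.11 to 36.2, 6 UMIs), Utf1 at 5.55 CPM and Sox2 at 0 UMIs. At E12.5 Nanog was at 48.8 CPM (41.7 to 56.8) in a cluster of 172 cells with the least Stra8 (31.2 CPM), at 23.7 (20.0 to 27.9) in one of 336 cells and at 23.4 (14.1 to 36.5) in one of 73 cells whose Stra8 was at 491 CPM. A small E13.5 cluster of 31 shallow cells (median 6412 UMIs) went another way: Pou5f1 was at 613 CPM and Utf1 at 383, above the 331 and 278 of the next highest cluster, with Sox2 at 50.7 and Prdm14 and Prdm1 at 0 UMIs, while Stra8 stood at 576 CPM.

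Detection per cell was compared after thinning each cell to 3000 UMIs and leaving out shallower cells (0, 12, 16, 42 and 114 in stage order). Pou5f1 was detected in 100%, 88.6%, 75.4%, 48.0% and 5.54% of cells over the 5 stages in order; unthinned shares were 100%, 96.8%, 97.1%, 85.6% and 17.0%. In endothelium- and erythroid-like cells, which should lack the gene, the thinned Pou5f1 share was 1.96% at E13.5 (0.238 to 6.90; median depth 14844 UMIs) and 0 of 91 cells at E14.5, which allows up to 3.30% by the floor of 3 counts and 3.97% by the exact interval (median depth 9689.5 UMIs). Nanog was detected in 33.3%, 12.7%, 7.43%, 2.22% and 0% of thinned germ-cell-like cells; the 0 of 1047 cells at E14.5 allows a share of up to 0.287% by the floor of 3 counts and 0.352% by the exact interval, and 1 unthinned cell held a Nanog UMI. At least 3 of the 10 genes were found together in 88.9% of E10.5 cells, 68.6% of E11.5 cells (63.0 to 73.8), 51.9% of E12.5 cells (47.6 to 56.0), 13.8% of E13.5 cells (12.02 to 15.8) and 0.191% of E14.5 cells. None of the 10 was found in 0%, 0%, 3.01%, 24.7% and 87.0% of cells.

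**Figure D3:**
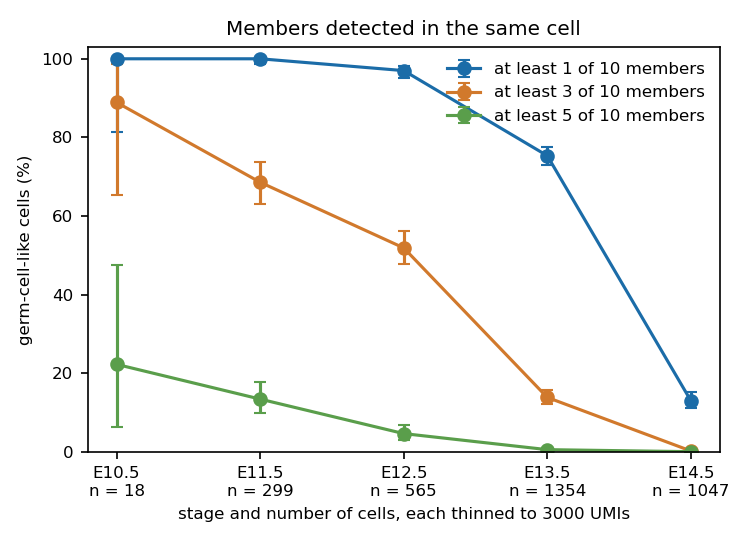
Share of germ-cell-like cells, each thinned to 3000 UMIs, with UMIs of at least 1, 3 or 5 of the 10 genes at each stage, with exact Clopper-Pearson 95% intervals. The share with at least 3 goes from 68.6% at E11.5 to 13.8% at E13.5 and 0.191% at E14.5.

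Outside the germ line most of the 10 were near 0, with the following exceptions. Sox2 stood at 326 CPM (292 to 364) in the neural-tube-like cells of E10.5, a tissue where it maintains progenitors, and at 57.8 CPM in neural-crest-like cells, beside 271 CPM (206 to 349) in germ-cell-like cells. Prdm1 stood at 5.98, 17.6, 26.2, 23.7 and 24.6 CPM in endothelium-like cells over the 5 stages, and from E12.5 on that interval overlapped or exceeded the germ cell value (26.2, 20.9 and 4.62 CPM). An unnamed E10.5 cluster of 106 cells had Prdm1 at 36.5 CPM (22.3 to 56.3, 20 UMIs), which overlapped the germ cell interval of that stage. Among the other named classes Pou5f1 was highest at E13.5, with 11.4 CPM (8.25 to 15.4) in a class that matched both coelomic epithelium and the supporting lineage. That interval overlapped the 6.57 CPM (3.68 to 10.8, 15 UMIs) of endothelium-like cells of E13.5, which should lack the gene. It also overlapped the 9.59 CPM (6.97 to 12.9) of a supporting-lineage-like cluster of 632 cells. Whether Pou5f1 RNA in these classes came from germ cells was not tested. Tfap2c stood at 19.3 CPM (9.27 to 35.6, 10 UMIs) in surface- or gut-epithelium-like cells of E10.5. Gdf3 had 7 UMIs in 21 leukocyte-like cells of E14.5 (44.7 CPM, 18.0 to 92.1), against 3 UMIs in all 1161 germ-cell-like cells.

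Utf1 was also found in a somatic lineage of the gonad. In supporting-lineage-like cells, the lineage that gives pregranulosa cells in the ovary, it stood at 99.8 (94.4 to 105), 47.4, 5.93 and 2.07 CPM in the libraries of E11.5 to E14.5, and in the supporting-lineage-like cells of Induced D6 at 61.4 CPM. Endothelium- and erythroid-like cells of E11.5 and E12.5 together held 1 Utf1 UMI. In thinned cells Utf1 was detected in 18.7%, 11.3%, 1.44% and 0.820% of supporting-lineage-like cells from E11.5 to E14.5 and in 11.1% of those of Induced D6, where Pou5f1 was detected in 0.343%, 0.365%, 1.76%, 0.410% and 0.150%. The Utf1 level was highest in the cluster with the most Foxl2, the granulosa cell factor: 163 CPM at E11.5 (Foxl2 33.9), 101 at E12.5 (Foxl2 104) and 101 in Induced D6 (Foxl2 50.4). Among cells with a Foxl2 UMI, Utf1 was detected in 36.1% (20.82 to 53.8) of E11.5 cells, 19.6% (13.6 to 26.8) of E12.5 cells, 1.38% of E13.5 cells, 0.647% of E14.5 cells and 17.1% (10.6 to 25.4) in Induced D6. In the other cells of the class the shares were 18.0% (15.5 to 20.77), 9.97% (8.13 to 12.1), 1.46%, 0.946% and 10.52% (8.86 to 12.4). The intervals with and without Foxl2 overlapped at E13.5, at E14.5 and in Induced D6, and nearly met at E11.5. At E13.5 the Utf1 share of the class was under its Pou5f1 share. Utf1 was lower at E13.5 than at E12.5 in both lineages, 2.60-fold in germ-cell-like cells and from 47.4 to 5.93 CPM in supporting-lineage-like cells. Classes were named from markers, and at Leiden resolutions of 0.5 and 2 the E11.5 value was 107 and 124 CPM.

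**Figure D4:**
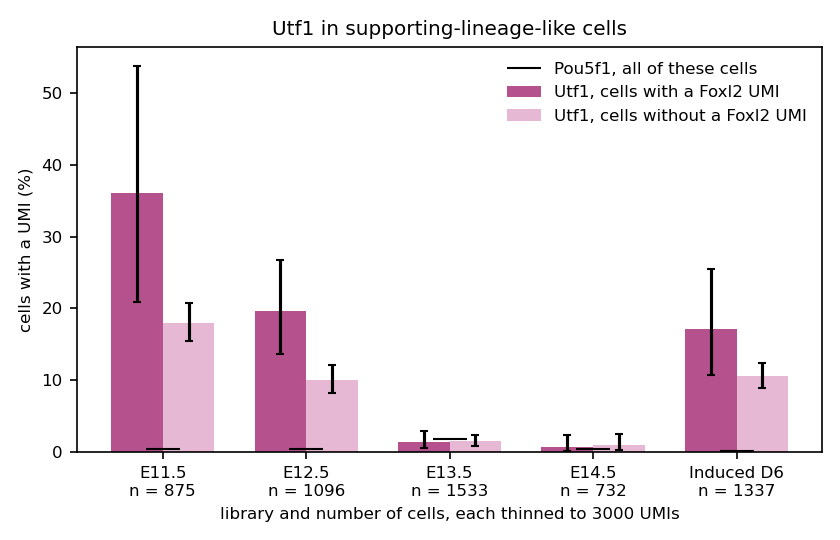
Share of supporting-lineage-like cells with a Utf1 UMI in cells with and without a Foxl2 UMI (bars, exact Clopper-Pearson 95% intervals), and share with a Pou5f1 UMI (black lines), in cells thinned to 3000 UMIs. Utf1 reaches 36.1% at E11.5 and 17.1% in Induced D6 in cells with Foxl2, and 0.647% at E14.5.

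In the 7064 Induced D6 cells the germline regulators were close to absent. Pou5f1 had 129 UMIs (2.80 CPM) in 54 cells and Nanog 76 UMIs (1.65 CPM) in 64 cells. Utf1 had 680 UMIs (14.8 CPM) in 357 cells, most in the supporting-lineage-like cells above (559 UMIs). The other 7 had 28 UMIs (Tfap2c) or fewer, down to 1 for Prdm14. After thinning, 96.4% of 6902 cells held none of the 10. The thinned shares of Pou5f1 and Nanog were 0.391% and 0.362%, beside 0.364% and 0.146% in the stroma-like cells of that library.

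Of the 7064 cells, 4 (0.0566%, 0.0154 to 0.145) stood apart. They were chosen for holding UMIs of at least 3 of the 10 genes other than Utf1, so their levels of those genes are a description. They held 20, 16, 11 and 22 Pou5f1 UMIs, 69 of the 129 in the library, and 15 Nanog, 14 Sox2, 11 Tfap2c, 22 Utf1, 4 Tcl1, 3 Gdf3, 1 Prdm14, 1 Sox15 and 0 Prdm1 UMIs. Their Pou5f1 level was 725 CPM, next to 735 CPM in germ-cell-like cells of E11.5, and without them the library had 1.31 CPM. Nanog was higher than in those germ-cell-like cells, at 158 CPM (88.2 to 260) against 52.1 (46.7 to 57.9). Utf1 was lower, at 231 CPM (145 to 350) against 635 (616 to 654), as was Tcl1, at 42.0 (11.4 to 108) against 126 (118 to 135). The intervals of the other genes overlapped. Of genes that did not choose them, the 4 cells held 873 of the 1107 Dppa5a UMIs of the library (180 to 254 each). They also held 8 Zfp42 UMIs over all 4 cells, 18 L1td1 UMIs over 3 and 13 Dppa3 UMIs over 3. Wt1, a gonad somatic factor found in 96.0% of Induced D6 cells, was found in 2 of the 4, and Dazl in 1 with 1 UMI. Each held 18063 to 28788 UMIs, where the library median was 6184. The count stayed at 4 with doublets kept (7519 cells) and among all 7564 barcodes. All 4 lay in an unnamed cluster of 243 cells, and at Leiden resolution 2 in a cluster of 45 cells (median 2043 UMIs) whose markers matched both germ and pluripotent cells. Cells of that cluster beyond the 4 held such RNA too: in all, 8 of its cells held 82 Pou5f1 UMIs, 8 held 992 Dppa5a UMIs, 5 held all 24 Dppa3 UMIs of the library and 6 held 33 of its 35 Stra8 UMIs. Other germ cell markers differed. The cluster held 11 of the 17 Dppa4 and 6 of the 8 Dppa2 UMIs of the library, genes that are also in the pluripotent marker set. It held 0 of the 47 Ddx4, 0 of the 310 Nanos3, 2 of the 212 Dnd1 and 1 of the 9 Dazl UMIs. With 194812 UMIs in the cluster, 0 UMIs allows up to 18.9 CPM, above the 1.02 (Ddx4) and 6.74 CPM (Nanos3) of the library. Dnd1 stood at 10.3 CPM (1.24 to 37.1) in the cluster and at 4.61 CPM in the library. What these 4 cells are was not tested.

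**Figure D5:**
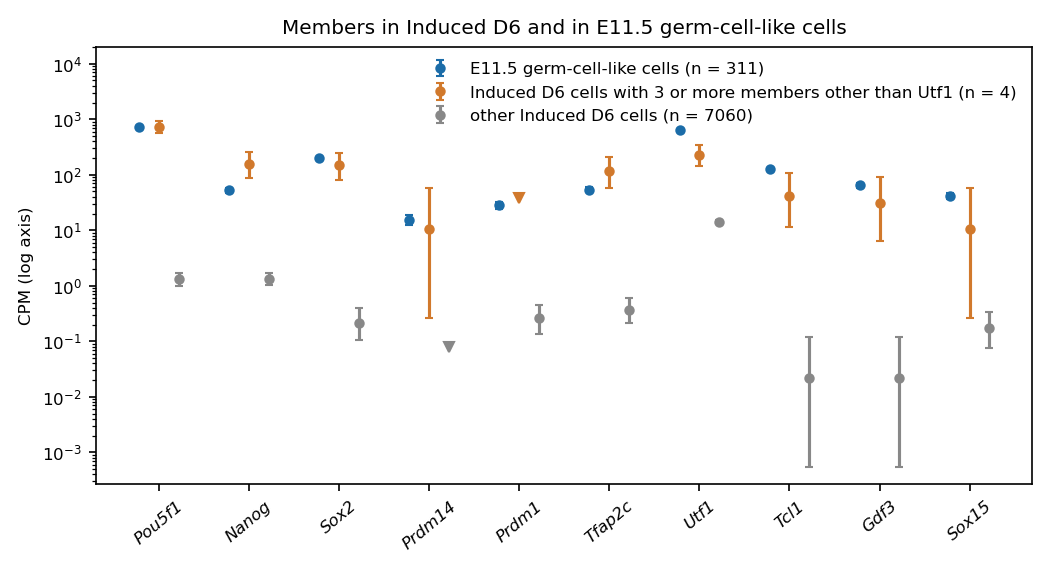
CPM of the 10 genes (log axis) in E11.5 germ-cell-like cells, in the 4 Induced D6 cells with UMIs of at least 3 genes other than Utf1, and in the other 7060 Induced D6 cells, with exact Poisson 95% intervals; triangles are upper limits at 0 UMIs. Pou5f1 is at 725 CPM in the 4 cells and at 1.31 CPM in the rest. Nanog is higher in the 4 cells than at E11.5, and Utf1 and Tcl1 are lower.

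To see which genes follow the 10 across all cell classes, log2(CPM + 10) was compared over 35 sums of a class in a library (each of at least 50 cells, 4 of them germ-cell-like) among 6380 genes. The sums share libraries, so the values are a description. The 3 nearest genes of Pou5f1 were Dppa3, Foxr1 and Dppa4 (Pearson r 0.995, 0.993 and 0.991). Those of Nanog were Gdf3, L1td1 and Tcl1 (0.988, 0.988 and 0.987), and those of Prdm14 and Sox15 began with Tcl1 (0.996 and 0.995). Among the genes that reached 50 CPM in a sum, Tcl1 and Gdf3 were each other's nearest (0.994). Prdm14, Prdm1 and Sox15 did not reach that level. Sox2 was nearest to Igfbpl1 and Pax6, a neural factor (0.964 and 0.914), and Prdm1 to Kit and Pecam1 (0.919 and 0.876), the latter an endothelial adhesion gene. Utf1 was nearest to Dnd1 (0.922).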

How the data were processed

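Polyadenylated RNA of 5 XX gonad libraries and the Induced D6 library was counted, 1 library per group. The authors deposited raw UMI counts per gene and barcode, made with Cell Ranger 3.0.2 on mm10 per the submitters' processing notes; the cell caller and gene annotation are not stated in these sources. Barcodes under 500 genes or over 10% mitochondrial UMIs were dropped, and the highest Scrublet scores (scanpy 1.11.5) were removed, up to 0.8% per 1000 cells; 60 to 455 cells went per library. Each library was clustered alone without the 10 genes (10000 target sum, 2000 variable genes, 30 components, 15 neighbours, Leiden resolution 1). Clusters were named from 17 marker sets by thresholds set after the data were seen: a marker counted at 1.5-fold and in 10% of cells, and at least 3 markers and 33.3% of a set were needed. Germ and pluripotent marker sets were not counted against each other. The members and lists were chosen with earlier results of these data known.

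UMIs were summed per class and given as CPM with exact Poisson intervals; ratios carry conditional binomial and shares Clopper-Pearson intervals, and the ratio code was tested on simulated data. A gene was called at 4-fold (E14.5 against E11.5) or 2-fold (neighbouring stages, meiotic ranges) at 50 CPM or more in either class. Cells were thinned to 3000 UMIs for shares. The text names the 10 members, up to 3 genes of each list with the largest ratio in each direction, and the nearest genes by correlation. Of the nearest gene of at least 50 CPM on each side of a member, it names those described. Nodal, Lefty2, Acvr2a, Foxl2 and the genes beside the 4 Induced D6 cells were named after their values were seen. The 250-base stretches come from RefSeq, GRCm38.p6, and gene positions from GENCODE vM21 by Ensembl identifier. The nearest gene of 1 member is not reported here.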

Additional observations from a re-analysis of the deposited data

How the results depend on the processing

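No paired analysis was possible because each group has 1 library. Every count interval covers counting error alone, and the 18 germ-cell-like cells of E10.5 limit that stage. Under the settings run for them, the values of 10 genes were in falling order from E11.5 (that of Prdm1 and Prdm14 at E12.5 within counting error of E11.5), and 7 to 10 were called 4-fold lower, with 10 where the minimum was 10 CPM or none. Thinning to 2000 UMIs gave 48.0% of E11.5 cells with at least 3 genes, since thinner cells hold fewer UMIs. Utf1 in supporting-lineage-like cells of E11.5 was 107 CPM at Leiden resolution 0.5 and 124 CPM at resolution 2, where the class holds other cells. Over all genes, 427 were 4-fold lower and 511 higher at E14.5, against 985 and 1205 at a minimum of 10 CPM and 3177 and 2508 with none. Settings without the shared barcodes and with at least 5000 UMIs per cell were added after the data were seen.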
